A study of Arabidopsis thaliana with 6 samples.

Results

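The subject here is 10 genes of the mitogen-activated protein (MAP) kinase cascade of Arabidopsis thaliana, out of 32548 gene IDs in an RNA-seq table of whole seedlings. The genes are the MAP kinases MPK3, MPK4, MPK6 and MPK11, the MAP kinase kinases MKK4, MKK5 and MKK9, and the MAP kinase kinase kinases MAPKKK13, MAPKKK17 and MAPKKK18. They were picked by gene ID as a pathway with results from all 3 genotypes of these data already known, so their values are a description and no p-value is printed for them. All 10 passed the filter on low values. Coordinates are those of the RefSeq annotation on TAIR10.1.

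The libraries fall into 3 genotypes with 2 libraries each, all from seedlings aged 12 days, grown on MS plates in long days without any treatment. The hac1hac5 seedlings (genotype hac1-/-hac5-/-) are homozygous mutants, by their label, for HAC1 and HAC5, which encode histone acetyltransferases. The med8med25 seedlings (med8-/-med25-/-) are homozygous mutants for 2 subunits of Mediator, the coactivator complex of RNA polymerase II. Col-0 is the wild type that both are set against. The labels name no alleles and leave unsaid whether the paired libraries were grown as separate batches of plants, so p-values measure a spread that may be technical.

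In a MAP kinase cascade a MAPKKK phosphorylates a MAP kinase kinase (MKK), which in turn phosphorylates and activates a MAP kinase (MAPK). In Arabidopsis, MKK4 and MKK5 activate MPK3 and MPK6 when cell-surface receptors sense bacterial flagellin, and the module MEKK1, MKK1, MKK2 and MPK4 acts beside them. MAPKKK17 and MAPKKK18 belong to an abscisic acid module that runs through MKK3 to the group C kinases MPK1, MPK2, MPK7 and MPK14. Kinase activity is set mainly by phosphorylation, which RNA-seq does not measure.

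Recovered depth was 33896826 and 36753643 reads in hac1hac5, 24881292 and 32322158 in med8med25, and 36195832 and 33117193 in Col-0. MED8 was at 307.1 and 322.9 normalized counts in med8med25, against 846.6 and 855.3 in Col-0, and MED25 at 253.8 and 302.4 against 1236 and 1227. In hac1hac5 the targeted transcripts remained: HAC1 was at 2342 and 2875, against 3385 and 3529 in Col-0, and HAC5 at 800.7 and 1087, against 1233 and 1190. HAC1 was called lower in hac1hac5 (log2 difference -0.41, SE 0.10) but not once either Col-0 library or the first hac1hac5 library was left out (-0.44, -0.38 and -0.27), nor with scaling to column totals (-0.23). HAC5 was not called (-0.38, SE 0.13), but was without the second hac1hac5 library (-0.60) and, at -0.38 each, without either med8med25 library, with a stricter filter on low values, with a replicate block or with limma voom. Shoot and root markers were present in all 6 libraries, as a seedling label implies: the summed level of 5 shoot markers was between 985640 and 1514500, and that of 7 root markers between 30596 and 62276. Of the 5 shoot markers, 1 was called lower in hac1hac5 (RBCS3B, -0.87) and 2 in med8med25 (RBCS3B, -0.84, and CAB3, -0.69). Among the root markers, RHS19, LRX1 and EXPA7 were called lower in hac1hac5 (-1.07, -0.82 and -0.78), while in med8med25 BGLU23 was called lower (-1.18) and SCR higher (0.39). Of 4 seed markers, EM1 was called higher in hac1hac5 (1.81), and SESA1 and CRU1 lower in med8med25 (-2.58 and -1.99). Beside these marker counts, 17.4% of all genes were called higher and 21.0% lower in hac1hac5, and 12.3% and 14.3% in med8med25. Several of these marker calls depended on 1 library or on a setting. In hac1hac5, RBCS3B was not called without the second Col-0 library (-0.82), nor EM1 without any 1 of the 4 libraries compared (1.30 to 2.31), with a replicate block or no filter (1.81 each) or with a pseudocount of 0.1 (1.94). In med8med25, leaving out the first or the second Col-0 library ended the calls of RBCS3B (-0.90 and -0.79), CAB3 (-0.70 and -0.67), SCR (0.37 and 0.41) and CRU1 (-2.36 and -1.61). CRU1 was also lost without the first med8med25 library (-1.43), SESA1 without the second Col-0 library (-2.28), and CAB3 with a replicate block or no filter (-0.69 each) or with median-of-ratios scaling (-0.67). In whole seedlings, fewer cells of a type and less RNA per cell cannot be told apart, and a difference in growth or harvest between genotypes cannot be told apart from one caused by the mutations.

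In hac1hac5, 8 of the 10 cascade genes were called higher than in Col-0 and none lower, with MAPKKK18 at 19.6-fold, MPK11 at 7.17-fold, MKK9 at 6.85-fold and MPK3 at 4.62-fold. MPK4 and MPK6 were not called. In med8med25, the 3 MAP kinase kinases MKK4, MKK5 and MKK9 were called higher than in Col-0, at 1.43-fold to 1.85-fold, and the other 7 genes were not called. Calls are at 0.05 on the Benjamini-Hochberg adjusted p of a limma fit across 23898 genes, in which 38.4% of all genes were called between hac1hac5 and Col-0 (17.4% higher) and 26.6% between med8med25 and Col-0 (12.3% higher). The median log2 difference of the 10 genes was 1.38 in hac1hac5, against -0.02 for all genes tested, and 0.39 in med8med25, against 0.001. Since the genes were chosen with these contrasts known, nothing is read from those counts. Scaling to column totals shifted the median of all genes to 0.16 in hac1hac5 and 0.16 in med8med25, and added MPK4 to the genes called in both mutants (log2 difference 0.35 and 0.36) and MAPKKK17 in med8med25 (0.67).

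**Figure D1:**
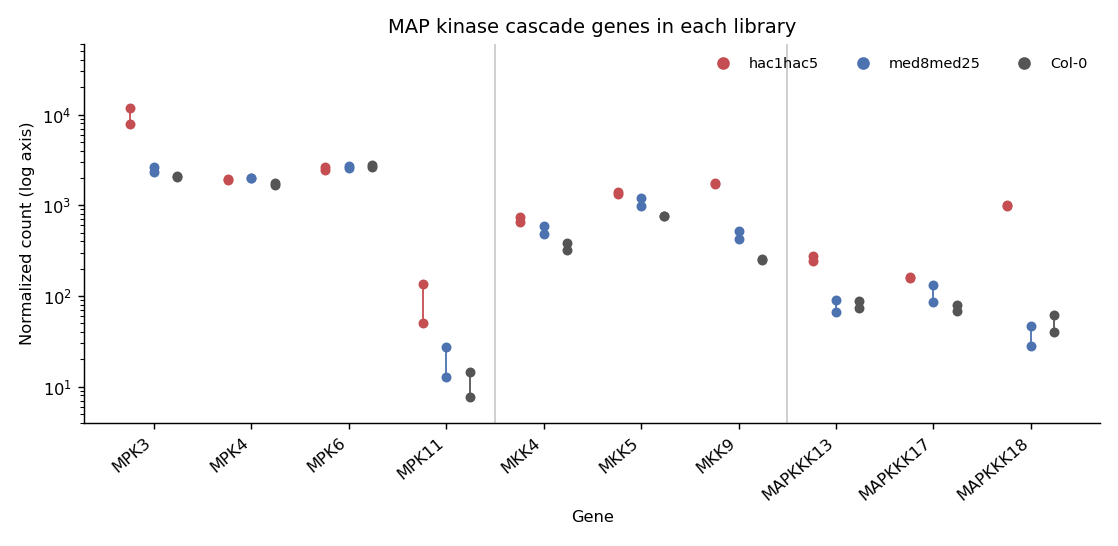
Normalized counts of the 10 cascade genes (log axis) in each of 6 libraries, with hac1hac5, med8med25 and Col-0 from left to right within each gene; each point is a library and the line joins the 2 libraries of a genotype. The hac1hac5 points lie above all others for 8 genes, from MPK11 at 134.0 and 50.0 to MPK3 at 7850 and 11685, but not for MPK4 and MPK6.

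Among the MAP kinases, MPK3 (AT3G45640, chr3:16756571-16758874, plus strand) was at 7850 and 11685 normalized counts in hac1hac5, 2642 and 2322 in med8med25, and 2115 and 2031 in Col-0. Both hac1hac5 libraries stood above all the others, and they also differed from each other more than the libraries of any other genotype did. The log2 difference was 2.21 (SE 0.16) between hac1hac5 and Col-0 and 0.26 (SE 0.16) between med8med25 and Col-0, where the gene was not called although its 2 libraries lay above both Col-0 values.

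MPK6 (AT2G43790, chr2:18138246-18140988, plus strand), which shares its upstream kinases and many substrates with MPK3, was at 2445 and 2620 in hac1hac5, 2675 and 2600 in med8med25, and 2648 and 2761 in Col-0. Both hac1hac5 libraries lay slightly below both Col-0 libraries, and med8med25 overlapped each of the others. The gene was not called, with log2 differences of -0.10 (SE 0.07) in hac1hac5 and -0.04 (SE 0.07) in med8med25 against Col-0, which turned to 0.09 and 0.12 with scaling to column totals. Per kilobase of RefSeq exon, the ratio of MPK3 to MPK6 was 2.96 and 4.11 in the hac1hac5 libraries, 0.911 and 0.824 in med8med25, and 0.737 and 0.678 in Col-0. Such a ratio within a library does not depend on how libraries are scaled, and MPK3 exceeded MPK6 in the hac1hac5 libraries alone.

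MPK4 (AT4G01370, chr4:566917-570299, plus strand), which restrains immune responses and is needed for normal growth, was at 1910 and 1964 in hac1hac5, 1983 and 1986 in med8med25, and 1778 and 1675 in Col-0. Both mutants lay slightly above Col-0, by 0.17 (SE 0.07) in hac1hac5 and 0.20 (SE 0.07) in med8med25 on the log2 scale, without a call. Of the 50-base windows of its longest transcript, 68.5% are free of other annotated genes, the lowest share among the 10, and the strand setting of the read counting is not given in the sources used here. MPK11 (AT1G01560, chr1:202103-204440, plus strand), the closest relative of MPK4 and also activated by flagellin, was the weakest of the 10 genes, at 134.0 and 50.0 in hac1hac5, 12.9 and 27.4 in med8med25, and 14.5 and 7.63 in Col-0. These values rest on 147 and 60 reads in hac1hac5, 9 and 29 in med8med25, and 15 and 7 in Col-0. The hac1hac5 libraries lay above the rest but far from each other, and the log2 difference from Col-0 of 2.84 had the largest standard error of the 10 genes (0.54). In med8med25 the difference was 0.78 (SE 0.54), with libraries that overlapped those of Col-0.

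Among the MAP kinase kinases, MKK9 (AT1G73500, chr1:27639091-27640643, minus strand) differed most. MKK9 can activate MPK3 and MPK6, and in Arabidopsis it has been tied to ethylene and camalexin production. It was at 1720 and 1744 normalized counts in hac1hac5, 515.0 and 421.0 in med8med25, and 250.3 and 253.3 in Col-0. The 3 genotypes formed separate steps, with log2 differences from Col-0 of 2.78 (SE 0.11) in hac1hac5 and 0.88 (SE 0.11) in med8med25.

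MKK4 (AT1G51660, chr1:19154323-19156338, plus strand), a partner of MKK5 upstream of MPK3 and MPK6, was at 659.5 and 747.0 in hac1hac5, 596.9 and 486.7 in med8med25, and 379.0 and 316.9 in Col-0. MKK5 (AT3G21220, chr3:7445604-7448498, plus strand) was at 1319 and 1395 in hac1hac5, 1196 and 984.0 in med8med25, and 757.7 and 758.8 in Col-0. Both genes had the order hac1hac5, med8med25, Col-0 with no overlap between genotypes. Their log2 differences from Col-0 were 1.02 (SE 0.13) and 0.84 (SE 0.10) in hac1hac5, and 0.64 (SE 0.13) and 0.52 (SE 0.10) in med8med25. Leaving out the second Col-0 library ended the med8med25 calls of MKK4 (0.51) and MKK5 (0.52), and leaving out the first ended that of MKK5 (0.51), so that 1 and 2 of the 10 genes were then called higher. The ratio of MKK4 to MKK5 per kilobase was 0.597 and 0.639 in hac1hac5, 0.596 and 0.590 in med8med25, and 0.597 and 0.498 in Col-0. That ratio overlapped between med8med25 and Col-0, while hac1hac5 and Col-0 only touched, at 0.597. The ratio of MKK9 to MKK5 was 2.02 and 1.94 in hac1hac5, 0.667 and 0.663 in med8med25, and 0.512 and 0.517 in Col-0.

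**Figure D2:**
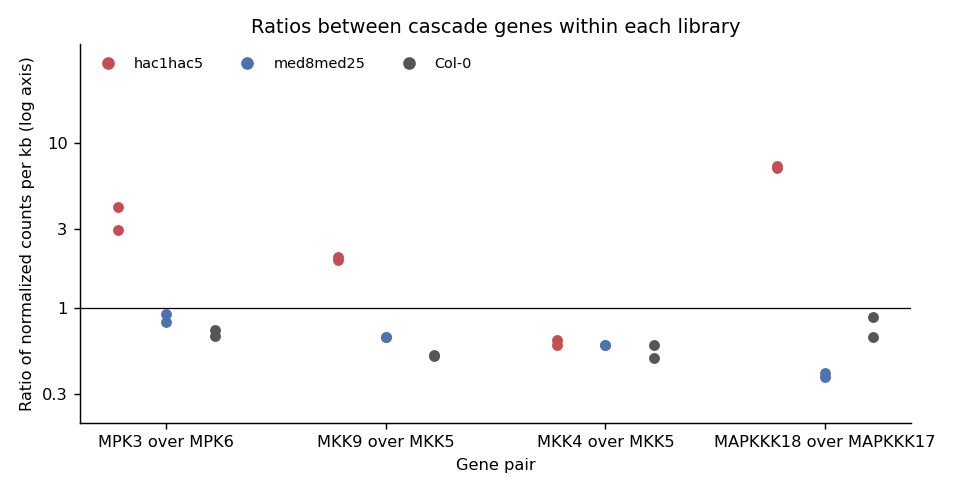
Ratios between pairs of cascade genes within each library, in normalized counts per kilobase of exon (log axis), with hac1hac5, med8med25 and Col-0 from left to right within each pair and a line at 1. The ratios of MPK3 to MPK6, MKK9 to MKK5 and MAPKKK18 to MAPKKK17 lay above 1 in both hac1hac5 libraries and below 1 in the other 4 libraries, while MKK4 to MKK5 lay between 0.498 and 0.639 throughout.

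At the top tier, MAPKKK18 (AT1G05100, chr1:1469541-1470881, plus strand) was at 983.0 and 995.4 normalized counts in hac1hac5, 46.4 and 27.9 in med8med25, and 61.0 and 39.99 in Col-0. Its hac1hac5 libraries agreed closely and stood far above the rest, while med8med25 and Col-0 overlapped. The log2 difference from Col-0 was 4.30 (SE 0.27) in hac1hac5 and -0.45 (SE 0.27) in med8med25, where the gene was called lower without the first med8med25 library (-0.80).

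MAPKKK17 (AT2G32510, chr2:13798561-13800099, minus strand), its closest partner in the abscisic acid module, was at 159.8 and 157.5 in hac1hac5, 132.6 and 85.0 in med8med25, and 79.3 and 68.8 in Col-0. Its log2 differences from Col-0 were 1.09 (SE 0.22) in hac1hac5 and 0.52 (SE 0.22) in med8med25, where it was called without the second med8med25 library (0.84). Per kilobase, the ratio of MAPKKK18 to MAPKKK17 was 7.06 and 7.25 in hac1hac5, 0.401 and 0.377 in med8med25, and 0.883 and 0.667 in Col-0. None of the 50-base windows (the read length) of either transcript occurs exactly elsewhere in the genome, and the same held for all 10 genes.

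MAPKKK13 (AT1G07150, chr1:2193941-2195996, minus strand), also of the MEKK type, was at 241.6 and 275.1 in hac1hac5, 91.2 and 66.4 in med8med25, and 88.0 and 73.2 in Col-0. The hac1hac5 libraries lay above the others and med8med25 spanned Col-0, with log2 differences of 1.67 (SE 0.20) and -0.04 (SE 0.20). In med8med25 the sign turned without the first Col-0 library (0.09) or the second med8med25 library (0.18), and with scaling to column totals (0.11).

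The sequences upstream of the MAPKKK genes are shown because the members of this tier differed most in size of change, and that of MPK6 as a gene not called in any comparison. Each is the 250 bases before the RefSeq gene start in assembly TAIR10.1, read 5′ to 3′ on the strand of the gene. Capitals mark matches, on either strand, to ACGTG (the core of the abscisic acid response element), TTGAC (the core of the W-box bound by WRKY factors), CGCGTT (the rapid stress response element) or GCCGCC (the GCC-box).
MAPKKK18, chr1:1469291-1469540, plus strand: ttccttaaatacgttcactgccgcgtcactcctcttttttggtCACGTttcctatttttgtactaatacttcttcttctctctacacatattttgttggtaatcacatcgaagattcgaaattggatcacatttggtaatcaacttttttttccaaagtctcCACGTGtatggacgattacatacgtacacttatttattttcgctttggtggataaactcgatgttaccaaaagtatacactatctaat
MAPKKK17, chr2:13800100-13800349, minus strand: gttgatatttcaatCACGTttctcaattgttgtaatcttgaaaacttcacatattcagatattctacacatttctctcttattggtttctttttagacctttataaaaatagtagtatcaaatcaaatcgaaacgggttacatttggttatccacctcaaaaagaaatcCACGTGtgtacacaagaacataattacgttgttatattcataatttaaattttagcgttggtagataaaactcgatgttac
MAPKKK13, chr1:2195997-2196246, minus strand: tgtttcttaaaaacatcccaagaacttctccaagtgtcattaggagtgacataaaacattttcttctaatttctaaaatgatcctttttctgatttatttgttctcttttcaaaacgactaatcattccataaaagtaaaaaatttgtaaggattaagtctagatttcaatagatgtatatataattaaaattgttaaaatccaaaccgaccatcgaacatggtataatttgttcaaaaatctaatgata
MPK6, chr2:18137996-18138245, plus strand: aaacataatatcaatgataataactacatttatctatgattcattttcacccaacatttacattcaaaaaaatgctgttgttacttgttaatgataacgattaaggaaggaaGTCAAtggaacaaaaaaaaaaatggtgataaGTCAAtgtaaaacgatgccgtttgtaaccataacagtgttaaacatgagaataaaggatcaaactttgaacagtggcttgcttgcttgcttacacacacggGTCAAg

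MAPKKK17 and MAPKKK18 were the only ones of the 10 genes with ACGTG in this window, which 22.9% of 27443 nuclear protein-coding genes hold. In both, one match lies in the palindrome CACGTG (6.49% of genes), which begins 88 bases before the gene start in MAPKKK18 and 81 bases before it in MAPKKK17 and counts as a match on each strand. A further match begins 207 bases upstream in MAPKKK18 and 236 bases upstream in MAPKKK17. The 2 windows share a run of 14 identical bases, aaactcgatgttac, against at most 11 in any of the other 44 pairs of the 10 genes. Their overall identity in a global alignment (55.2%) was close to the highest of the other pairs (54.9%). TTGAC was found upstream of 3 of the 10 genes, MPK4, MPK6 and MPK11, against 44.9% of all genes. CGCGTT occurred upstream of MPK4 and GCCGCC upstream of MKK9, against 2.59% and 1.87% of all genes. A match shows only that the letters are present, and a window without one says nothing about a factor that may bind elsewhere.

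Set per kilobase of exon, the order of the 10 genes changed between genotypes. In hac1hac5 MPK3 led with 4225 and 6289 normalized counts per kilobase, followed by MPK6 with 1427 and 1529, MKK9 with 1107 and 1123, and MAPKKK18 with 733.0 and 742.3. MPK4, at 671.8 and 690.9, came just below MAPKKK18 there. That narrow order depends on the RefSeq exon lengths used, and 68.5% of the MPK4 windows are free of other annotated genes. In med8med25 MPK6 (1561 and 1517) and MPK3 (1422 and 1250) led, and MPK4 followed at 697.4 and 698.4. Col-0 had MPK6 first at 1545 and 1611, then MPK3 at 1138 and 1093 and MPK4 at 625.5 and 589.3. In Col-0 MKK4 (188.0 and 157.2) and MKK9 (161.2 and 163.1) overlapped, as did the 3 MAPKKK genes, which ran from 29.82 to 51.53, and MPK11 was last at 7.873 and 4.128.

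Set directly against hac1hac5, med8med25 had 6 of the 10 genes lower and none higher, in a contrast in which 41.4% of all genes were called, 20.9% higher and 20.5% lower. This contrast shares its libraries with the comparisons above. MAPKKK18 had the largest difference (-4.74, SE 0.27), followed by MPK11 (-2.06, SE 0.54), MPK3 (-1.95, SE 0.16), MKK9 (-1.89, SE 0.11), MAPKKK13 (-1.72, SE 0.20) and MKK5 (-0.32, SE 0.10). The call of MKK5 was lost without either Col-0 library (-0.32 each), either hac1hac5 library (-0.36 and -0.28) or the second med8med25 library (-0.18). That of MPK11 was lost without the first hac1hac5 library (-1.36) or the first med8med25 library (-1.55). MKK4 (-0.38, SE 0.13) and MAPKKK17 (-0.57, SE 0.22) were not called, nor were MPK4 (0.03, SE 0.07) and MPK6 (0.06, SE 0.07). Both MKK4 and MAPKKK17 were called with limma voom (-0.40 and -0.61) and without the first med8med25 library (-0.53 and -0.89). MKK4 was also called with a stricter filter on low values (-0.38) and with scaling to column totals (-0.40).

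**Figure D3:**
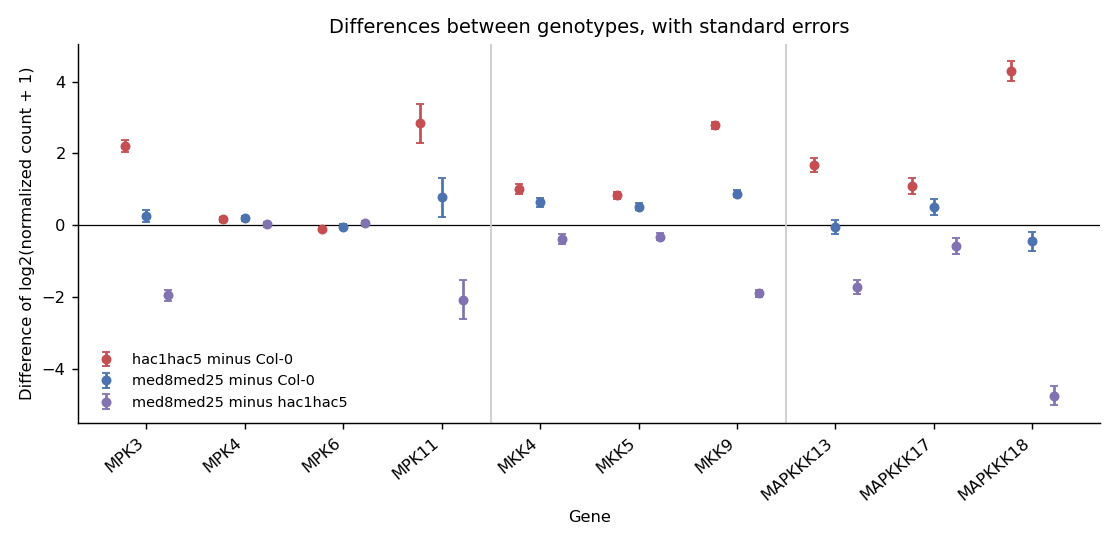
Differences of log2(normalized count + 1) for the 10 genes, with bars of 1 standard error from the limma fit; for each gene the contrasts run from hac1hac5 minus Col-0 through med8med25 minus Col-0 to med8med25 minus hac1hac5. MAPKKK18 spans the widest range, from 4.30 to -4.74, and MPK4 and MPK6 stay between -0.10 and 0.20.

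The other 40 kinases of the 3 tiers were taken by family, after the cascade genes described above were set aside. Those cascade genes were picked with results of these data known, as were all lists. The kinases left are therefore not a sample independent of how the genes moved, and their counts are a description. Of the 40, 38 passed the filter. MKK8 had no read in any library and MKK10 had 1, in the second med8med25 library. In hac1hac5 13 of the 38 rose and 5 fell against Col-0, where 17.4% of all genes were called higher and 21.0% lower. The median log2 difference of the 38 was 0.10. In med8med25 none rose and 6 fell, against 12.3% and 14.3% of all genes, and the median was -0.07. Scaling to column totals gave 17 higher and 4 lower in hac1hac5, and 8 higher and 3 lower in med8med25, so the absence of higher calls in med8med25 depends on the scaling. Without the second med8med25 library 8 were called higher as well. In hac1hac5, the count of higher genes was 8 without either Col-0 library or the first hac1hac5 library, and that of lower genes 3 without the first Col-0 library. In med8med25, 3 were lower without either Col-0 library.

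Of the 17 other MAPKKK genes listed, all of the MEKK type, 41.2% were called in hac1hac5 and 11.8% in med8med25, against 38.4% and 26.6% of all genes. In hac1hac5 7 rose and none fell. Leaving out any 1 of the hac1hac5 or Col-0 libraries left 4 higher, and without either med8med25 library 1 was called lower. In med8med25 2 fell and none rose, with 1 lower without either Col-0 library and 5 higher without the second med8med25 library and 3 with scaling to column totals. MAPKKK21 was at 87.4 and 100.1 normalized counts in hac1hac5, 5.40 and 6.58 in med8med25, and 5.79 and 6.43 in Col-0, a rise in hac1hac5 of 13.3-fold (log2 difference 3.73, SE 0.30, adjusted p = 4.3e-05). MAPKKK19 rose 4.62-fold (2.21, SE 0.41, adjusted p = 0.0034) and MAPKKK14 3.01-fold (1.59, SE 0.12, adjusted p = 2.6e-05). These belong to the same family branch as MAPKKK13, MAPKKK17 and MAPKKK18. MEKK1, the MAPKKK above MKK1, MKK2 and MPK4, rose 1.92-fold (0.94, SE 0.18, adjusted p = 0.0042). In med8med25 MAPKKK14 and MEKK3 fell (-0.68, SE 0.12, adjusted p = 0.0041, and -0.48, SE 0.12, adjusted p = 0.019). MAPKKK14 thus moved in opposite directions in the mutants, at 980.7 and 1162 in hac1hac5, 204.6 and 236.7 in med8med25, and 356.6 and 352.0 in Col-0. The difference between the mutants was -2.27 (SE 0.12, adjusted p = 8.0e-06). The fall of MEKK3 was not called without either Col-0 library (-0.49 and -0.48) or with scaling to column totals (-0.33).

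The 16 other MAP kinases split in hac1hac5, where 5 rose and 3 fell, and 3 were higher without either Col-0 library or the first hac1hac5 library. Called genes made up 50% of the 16 in hac1hac5, against 38.4% of all genes, and 25% in med8med25, against 26.6%. In hac1hac5, MPK5 rose 2.95-fold, at 1613 and 2037 against 640.9 and 587.2 in Col-0 (log2 difference 1.56, SE 0.11, adjusted p = 2.4e-05), and MPK17 rose 1.74-fold (0.80, SE 0.07, adjusted p = 8.6e-05). MPK13 fell to 49.7 and 48.2, against 117.9 and 129.7 in Col-0 (-1.32, SE 0.18, adjusted p = 6.8e-04). In med8med25 none of the 16 rose and 4 fell, with 2 lower without either Col-0 library, 1 higher without either hac1hac5 library 3 higher without the second med8med25 library and 4 higher with scaling to column totals. There MPK18, MPK7 and MPK2 fell (-0.52, SE 0.07, adjusted p = 9.2e-04; -0.34, SE 0.07, adjusted p = 0.012; and -0.32, SE 0.07, adjusted p = 0.0105). MPK7 and MPK2 lie in the abscisic acid module, and their calls were lost without either Col-0 library (-0.31 and -0.36 for MPK7, -0.30 and -0.34 for MPK2) and with scaling to column totals (-0.18 and -0.17). MPK12, a kinase of guard cells, fell in both mutants, at 309.1 and 388.3 in hac1hac5 and 331.0 and 352.0 in med8med25, against 573.2 and 540.0 in Col-0 (-0.68, SE 0.12, adjusted p = 0.0031, and -0.70, SE 0.12, adjusted p = 0.0046). Of 6 markers of guard cells and their precursors, 4 fell in each mutant, where 21.0% and 14.3% of all genes were lower in hac1hac5 and med8med25, led by the guard cell potassium channel gene KAT1 (-1.99, SE 0.11, adjusted p = 5.7e-06 in hac1hac5, and -1.26, SE 0.11, adjusted p = 1.4e-04 in med8med25). The others in hac1hac5 were the stomatal regulators FAMA (-1.56), MYB60 (-1.21) and MUTE (-1.08), and in med8med25 EPF1 (-1.20), TMM (-1.06) and FAMA (-0.72). The summed level of all 6 was 1739 and 1803 in hac1hac5, 2315 and 2737 in med8med25, and 4958 and 5407 in Col-0. In hac1hac5, MUTE was not called without the second Col-0 library (-0.80) or either hac1hac5 library (-1.02 and -1.15). In med8med25, EPF1 was not called without the first or the second Col-0 library (-1.30 and -1.11), nor FAMA without the second (-0.68), which left 2 of the 6 lower. No marker of the 6 was at 0, and their part in the fall of MPK12 was not tested.

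Of the 7 other MAP kinase kinases, 5 were tested. Called genes made up 60% of these in hac1hac5, against 38.4% of all genes, and 0% in med8med25, against 26.6%. MKK1 rose 1.48-fold in hac1hac5 (0.57, SE 0.10, adjusted p = 0.0020). MKK7 and MKK2 fell there (-2.33, SE 0.55, adjusted p = 0.0104, and -0.33, SE 0.07, adjusted p = 0.0065), so MKK1 and MKK2, which act together above MPK4, moved in opposite directions. MKK7 was weak, at 2.75 and 0.793 in hac1hac5, 8.06 and 9.397 in med8med25, and 18.4 and 7.68 in Col-0, and its call was lost without the first Col-0 library (-1.74) or the second hac1hac5 library (-1.79). That of MKK2 was lost without either Col-0 library (-0.35 and -0.32) and with scaling to column totals (-0.15). None of these kinase kinases was called in med8med25, except that 1 was higher there with scaling to column totals. MKK3, the partner of MAPKKK17 and MAPKKK18, had log2 differences of 0.08 in hac1hac5 and -0.11 in med8med25.

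**Figure D4:**
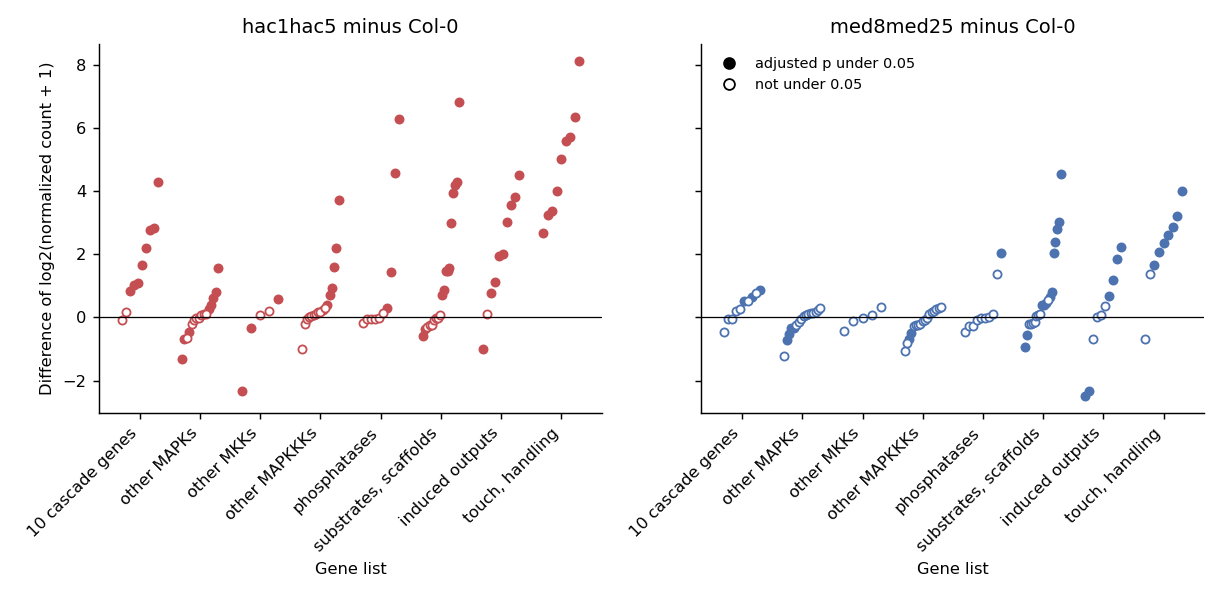
Differences of log2(normalized count + 1) for every tested gene of 8 lists, hac1hac5 minus Col-0 on the left and med8med25 minus Col-0 on the right; each point is a gene, filled where its adjusted p was under 0.05, and sorted by value within its list. In hac1hac5 8 of the 10 cascade genes and all 9 touch genes are filled above 0, and in med8med25 3 and 7.

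MAP kinases are switched off by phosphatases, and 4 of 10 phosphatase genes rose in hac1hac5 and 1 in med8med25, with none lower (medians of 0.07 and -0.01). The share called was 40% in hac1hac5, against 38.4% of all genes, and 10% in med8med25, against 26.6%. The count in hac1hac5 was 2 without the first Col-0 library or the second hac1hac5 library, and that in med8med25 was 2 without the second med8med25 library. AP2C1, a protein phosphatase 2C that inactivates MPK4 and MPK6, was at 5894 and 6610 normalized counts in hac1hac5, 1148 and 989.7 in med8med25, and 276.5 and 242.8 in Col-0. It rose 24.0-fold in hac1hac5 (log2 difference 4.59, SE 0.11, adjusted p = 1.5e-07) and 4.10-fold in med8med25 (2.04, SE 0.11, adjusted p = 1.3e-05). AT1G07160, annotated as a protein phosphatase 2C, was at 91.5 and 129.9 in hac1hac5, 6.18 and 0.877 in med8med25, and 0.971 and 0.00880 in Col-0, where it had 1 read in the first library and 0 in the second (adjusted p = 0.000165 in hac1hac5). In RefSeq, AT1G07160 and MAPKKK13 are neighbours on the same strand of chromosome 1 with 1857 bases between them, and AP2C1 and MAPKKK14 are neighbours on the same strand of chromosome 2 with 5208 bases between them. PP2C5 rose 2.70-fold in hac1hac5 (1.43, SE 0.37, adjusted p = 0.016), and MKP1, a dual-specificity phosphatase acting on MPK3 and MPK6, rose 1.24-fold (0.31, SE 0.08, adjusted p = 0.015). Both of these calls were lost without the first Col-0 library (0.89 and 0.28) or the second hac1hac5 library (1.47 and 0.23), that of PP2C5 also without the first hac1hac5 library (1.40), and that of MKP1 without the second Col-0 library (0.33).

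Of 20 genes for substrates and scaffolds of these kinases, 10 rose and 3 fell in hac1hac5, and 10 rose and 2 fell in med8med25 (medians of 0.39 in each). The share called was 65% in hac1hac5 and 60% in med8med25, against 38.4% and 26.6% of all genes. The 10 higher calls in med8med25 became 13 with scaling to column totals and 9 with a replicate block. Some of them were lost without either Col-0 library or the first med8med25 library. Leaving out either Col-0 library left 1 lower gene in each mutant, as did leaving out the second hac1hac5 library in hac1hac5, the first med8med25 library in med8med25 and scaling to column totals in both. WRKY33, a transcription factor phosphorylated by MPK3 and MPK6, was at 13670 and 18236 normalized counts in hac1hac5, 5607 and 3589 in med8med25, and 913.5 and 793.4 in Col-0. It rose 18.5-fold in hac1hac5 (4.21, SE 0.20, adjusted p = 3.5e-06) and 5.26-fold in med8med25 (2.40, SE 0.20, adjusted p = 1.4e-04). The ethylene synthesis gene ACS6, whose enzyme is stabilized by MPK6, rose 19.4-fold and 8.09-fold (4.28, SE 0.16, adjusted p = 1.0e-06, and 3.02, SE 0.16, adjusted p = 1.4e-05). The zinc-finger repressor gene ZAT10 rose by 6.83 (SE 0.12, adjusted p = 4.7e-08) and 4.53 (SE 0.12, adjusted p = 1.0e-06) on the log2 scale. ERF6, an ethylene response factor, rose 15.4-fold in hac1hac5 (3.95, SE 0.13, adjusted p = 6.2e-07) and 4.12-fold in med8med25 (2.04, SE 0.13, adjusted p = 3.6e-05). ERF104, a substrate of MPK6, rose 7.93-fold in hac1hac5 (2.99, SE 0.24, adjusted p = 3.7e-05) and 7.02-fold in med8med25 (2.81, SE 0.24, adjusted p = 1.3e-04). It was not called between the mutants (-0.18, SE 0.24). The 3 genes that fell in hac1hac5, RACK1A, RACK1B and RACK1C, encode scaffold proteins, and all 3 rose in med8med25. Their log2 differences from Col-0 were -0.27, -0.59 and -0.35 in hac1hac5, and 0.38, 0.46 and 0.81 in med8med25. As they hold the only lower calls of the list in hac1hac5, the losses of lower calls given above fall on them. With median-of-ratios scaling or a replicate block, 2 genes of the list were lower there. The RACK1 genes were chosen for mention after their values were seen. RACK1C was at 818.2 and 719.3 in hac1hac5, 1794 and 1647 in med8med25, and 1005 and 953.1 in Col-0, a difference of 1.16 between the mutants (SE 0.09, adjusted p = 4.8e-05). The transcription factor gene SPCH, which starts the stomatal lineage, and the immune receptor gene SUMM2 were the 2 that fell in med8med25, also named after their values were seen (-0.95, SE 0.16, adjusted p = 0.0039, and -0.55, SE 0.15, adjusted p = 0.029).

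Of 10 genes listed as readouts of MAP kinase signalling, 8 rose and 1 fell in hac1hac5, and 4 rose and 2 fell in med8med25 (medians of 1.99 and 0.21). The listed genes, PHI-1 included, need not respond to MAP kinases alone, which was not tested. The share called was 90% in hac1hac5 and 60% in med8med25, against 38.4% and 26.6% of all genes. With a stricter filter on low values, 7 were called higher in hac1hac5. Fewer were also called higher there without either hac1hac5 library or the second Col-0 library. In med8med25, fewer were higher and more lower without the first med8med25 library. FRK1, a receptor kinase gene used as a marker of flagellin signalling, was at 79.3 and 88.0 in hac1hac5, 7.99 and 8.45 in med8med25, and 8.73 and 4.37 in Col-0. It rose 11.7-fold in hac1hac5 (3.55, SE 0.36, adjusted p = 1.4e-04), with med8med25 close to Col-0. WRKY53, a transcription factor gene, was at 948.1 and 1181 in hac1hac5, 302.7 and 89.8 in med8med25, and 41.5 and 49.3 in Col-0. It rose in hac1hac5 (4.52, SE 0.45, adjusted p = 1.4e-04) and in med8med25 (1.85, SE 0.45, adjusted p = 0.019), where the call was lost without either Col-0 library (1.72 and 1.97) and with limma voom (1.77). CYP81F2, an enzyme of indole glucosinolate metabolism, rose 8.15-fold in hac1hac5 (3.03, SE 0.40, adjusted p = 6.0e-04). CYP82C2 was at 14.5 and 12.0 there and listed at 0 in the other 4 libraries (adjusted p = 6.8e-04). PHI-1 rose 4.06-fold in hac1hac5 (2.02, SE 0.19, adjusted p = 1.1e-04) and 4.65-fold in med8med25 (2.22, SE 0.19, adjusted p = 1.7e-04). It was not called between the mutants (0.20, SE 0.19). Without either Col-0 library, 2 of the 10 genes were called higher in med8med25, and without the second, 1 lower. In hac1hac5 none was called lower without either Col-0 library or the first hac1hac5 library.

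Touch and handling markers also differed between the genotypes. All 9 rose in hac1hac5 and 7 rose in med8med25, with none lower, where 17.4% and 12.3% of all genes were called higher, and their median log2 differences were 5.02 and 2.36. The largest in hac1hac5 were RRTF1 (8.13), ERF11 (6.34), CBF2 (5.72) and WRKY40 (5.60), and in med8med25 CBF2 (16-fold), WRKY40 (9.19-fold), ERF11 (7.30-fold) and RRTF1 (6.07-fold). Of the 9, 1 was called lower in med8med25 without the first med8med25 library. The rise of RRTF1 in med8med25 was not called with limma voom (2.86), and 26.3% of its 50-base windows were free of other annotated genes. The summed level of the 9 markers was 34353 and 46629 normalized counts in hac1hac5, 15515 and 14186 in med8med25, and 3662 and 3378 in Col-0. The order of this sum over the 3 genotypes was that of MPK3, MKK4, MKK5, MKK9 and MAPKKK17, with no overlap. MPK4, MPK6, MPK11, MAPKKK13 and MAPKKK18 did not have that order without overlap. The part of handling in the levels of the cascade genes was not tested.

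The genes most like MAPKKK18 over the 6 libraries, by Euclidean distance between log2 profiles centred on their own mean, were WRKY30 (distance 0.877), FAMT (1.03) and LEA4-5 (1.11) among 18048 genes compared. FAMT, for example, was at 2165 and 2331 normalized counts in hac1hac5, 72.7 and 98.8 in med8med25, and 91.0 and 67.9 in Col-0. MKK9 had closer neighbours, AT5G11650 and SOBIR1 (0.213 each) and WRKY48 (0.233). SOBIR1 was at 6055 and 7019 in hac1hac5, 2186 and 1670 in med8med25, and 1014 and 946.7 in Col-0, the same 3 steps as MKK9. For MPK11 they were AT5G52760 (0.591), ARCK1 (0.866) and XBAT34 (0.989). AT5G52760 was at 164.7 and 75.0 in hac1hac5, 19.7 and 38.7 in med8med25, and 24.2 and 17.3 in Col-0, with the same library higher within each genotype as for MPK11.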

How the data were processed

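Libraries were assigned to genotypes by their titles. The authors deposited 1 table of normalized signal for 32548 genes; HISAT2, featureCounts, edgeR and build TAIR10 are named in the submitters' processing notes, and versions, annotation and strand setting are not given in the sources used here. All 195288 values equalled, within 1e-06, those that a negative binomial quantile adjustment to a common library size gives from whole reads (7 fitted parameters, dispersion 0.00697), so depth was read from the recovered reads. Intervals and floors from reads would cover counting error only, as PCR duplicates are not independent molecules.

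Tests were two-sided, by limma-trend 3.58.1 in R 4.3.3 on log2(normalized count + 1), for 23898 genes with at least 1 in at least 2 libraries, genotype as the only term, 3 residual and 5.28 prior degrees of freedom, and Benjamini-Hochberg adjustment over all genes. Fold changes are on that scale, which understates weak genes. The fit and the recovery were tested on simulated data. Names came from RefSeq TAIR10.1, which matched 32548 IDs and served for windows, exon lengths and upstream sequence; its nuclear chromosomes are taken to be those of TAIR10, which the deposited table, holding no coordinates, could not show. AT1G07160, AT1G67820 and AT2G33550 are given as IDs.

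The 10 genes and all lists were chosen with earlier results of these data known. Adjusted p-values printed for list genes, from the limma fit over all genes, are therefore a description as well. Besides those 10 and the targeted genes, up to 4 called genes of each list with the largest difference in each mutant against Col-0 are named, and likeness was computed for the most changed gene of each tier among genes with a mean of at least 50. Alternatives were a pseudocount of 0.1, no filter or a stricter one (1 CPM), 2 scalings, a replicate block, limma voom on recovered reads and each library left out.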

Additional observations from a re-analysis of the deposited data

How the results depend on the processing

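The 8 higher calls among the 10 cascade genes in hac1hac5 held under every alternative run, each left-out library included. In med8med25 the 3 higher calls became between 1 and 4 with a library left out. With scaling to column totals, genes called lower in hac1hac5 were 2874 of all genes in place of 5010 (6017 higher in place of 4156, 67.7% of calls against 45.3%), and in med8med25 5258 were higher in place of 2929 and 1989 lower in place of 3421 (72.6% of calls higher against 46.1%). Of the 38 other kinases, 8 were then higher in med8med25 in place of 0 and 3 lower in place of 6. Signs turned with that scaling for MPK6 (0.085 in hac1hac5, 0.12 in med8med25) and, in med8med25, for MAPKKK13 (0.11), HAC1 (0.15) and HAC5 (0.10), none of them called, and for HAC1 with median-of-ratios scaling (0.0102). With a library left out, the lone library of that genotype is assumed to spread as the other genotypes do. Genes called higher and lower then ran from 2587 to 4826 and 2616 to 5841 in hac1hac5, from 1129 to 3174 and 1430 to 3703 in med8med25, and from 3584 to 4893 and 3269 to 5065 between the mutants. For the 38 kinases these were 8 to 14 and 3 to 6, 0 to 8 and 3 to 8, and 3 to 6 and 11 to 17. In med8med25 MAPKKK13 ran from -0.27 to 0.18 and HAC1 from -0.0396 to 0.0205. The cause was not tested. Deviations of same-numbered libraries correlated at -0.228, -0.011 and -0.131, so no positive pairing by replicate number was seen. Pairing in another order was not tested. With the replicate block 8234 genes were called in hac1hac5 and 5357 in med8med25, in place of 9166 and 6350, and no call among the 10 genes changed. Of the genes named by size of difference, the block ended the calls of EM1 in hac1hac5 and CAB3 in med8med25. It added the call of HAC5 in hac1hac5. Among the substrates and scaffolds, 2 genes were then lower in hac1hac5 in place of 3, so not all RACK1 genes kept their call. In med8med25, 9 genes of that list were then higher in place of 10. Values of a few reads, as for MPK11, limit what depth can show.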

Other observations

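The camalexin genes PAD3 and CYP71A13, listed among the readouts of MAP kinase signalling, fell in med8med25, where WRKY33, a transcription factor known to activate them, rose. PAD3, the last enzyme of camalexin synthesis, was at 68.1 and 99.7 normalized counts in hac1hac5, 37.3 and 22.3 in med8med25, and 149.7 and 185.4 in Col-0. It fell in med8med25 (log2 difference -2.49, SE 0.29, adjusted p = 6.7e-04) and in hac1hac5 (-1.01, SE 0.29, adjusted p = 0.0255), and without either Col-0 library or the first hac1hac5 library no readout was called lower in hac1hac5. CYP71A13, an earlier enzyme of the pathway, was at 42.7 and 29.8 in hac1hac5, 8.86 and 3.68 in med8med25, and 24.0 and 44.8 in Col-0. It fell in med8med25 (-2.32, SE 0.45, adjusted p = 0.0072), a call that was lost without the second Col-0 library (-1.88), and was not called in hac1hac5 (0.12, SE 0.45). WRKY33 was at 5607 and 3589 in med8med25, against 913.5 and 793.4 in Col-0.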
